A study of Mus musculus with 6 samples.

Results

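Genes of glycolysis and of the response to low oxygen were compared between 2 sorted fractions of mouse small cell lung tumours. The set was fixed as a list of 40 symbols that covers glycolytic enzymes, glucose and lactate transport, and the targets and regulators of the hypoxia-inducible factors. A gene was followed through the probe sets annotated to its symbol alone, and its brightest probe set over the 6 arrays gave its value. On that basis 36 of the 40 were measured among 18193 genes in all. Gpi1 and Eno1 had no such probe set, Bnip3l shares its probe sets with a second listed gene, and Gapdh had 3 control probe sets of its own, which are described without a test.

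The tumours came from mice of mixed C57BL/6;129Sv/J background with the engineered mutation of Rb, p53 and p130, collected 6 to 7 months after infection with adenovirus carrying Cre. No label names the promoter driving Cre, the age and sex of the mice or the sorting gates. Cells stained for CD24, CD44 and EpCAM were sorted, with no treatment, into tumour-propagating cells (TPCs) and the remaining fraction, called non-TPCs, and both fractions carry the same genotype. Mice 1127, 920 and 0107 gave 1 array per fraction, so that each comparison rests on 3 pairs. Unless another fit is named, each SE, interval and adjusted p comes from a limma fit without the mouse. That fit does not use the pairing, and the differences within each mouse are given beside it for many members. Values are RMA signals on a log2 scale, and every difference is TPC minus non-TPC.

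Glycolysis splits glucose into pyruvate, first spending and then regaining ATP, and lactate dehydrogenase turns pyruvate into lactate so that the pathway can run without oxygen. When oxygen falls, the prolyl hydroxylases encoded by Egln1 and Egln3 stop marking the HIF alpha subunits, made from Hif1a and Epas1, for destruction through the VHL protein. The stabilised factors then raise transcription of most glycolytic enzymes, of angiogenic factors such as Vegfa and of the hydroxylases themselves. Because HIF alpha is controlled mainly as a protein, its mRNA does not report its activity.

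Several features of the arrays touch these genes. The non-TPC array of mouse 0107 stood apart, with correlations over all genes of 0.952 to 0.963 with the other arrays, against 0.964 to 0.987 among the others. Mouse 0107 also differed in the control probe sets along the Gapdh transcript: the 3′ value exceeded the 5′ value by 4.01 for the TPC array and 3.94 for the non-TPC array, against 3.14 to 3.22 in the arrays of the other mice, on the log2 scale. For the beta-actin controls this gap was 3.66 and 3.41 in mouse 0107 and 2.79 to 3.02 elsewhere. Marker lists of other lung cells were lower in TPCs, with medians of -1.38 for 8 alveolar type 1 genes, -1.18 for 9 alveolar type 2 genes, -1.27 for 8 club cell genes, -1.79 for 12 fibroblast genes and -0.77 for 14 endothelial genes. Of the 15 listed tumour markers, 13 were measured and 11 of them exceeded the median gene level of 6.91. Their median difference was 0.04, with 7 higher and 6 lower in TPCs by their means and 0 past the test. Of the 13, 4 (Insm1, Dll3, Syp and Cplx2, by 0.38 to 0.75) were higher in TPCs of all 3 mice, where 19.7% of all genes were. Neurod1, a neuronal transcription factor of 1 tumour subtype, was at 9.70 in the non-TPC array of mouse 0107 and 3.88 to 5.11 in the other arrays. A list of 14 immediate early and heat shock genes, which respond to tissue dissociation, summed to 32055 in that array on a linear scale and to 48637 to 70663 in the others. In such bulk samples fewer cells of a type and less RNA per cell cannot be told apart.

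No member passed the test in either direction. Across all genes limma called 11 at an adjusted p under 0.05, or 0.0605%, all lower in TPCs, and 0 of the 36 members were among them. With the mouse as a replicate block 0.0715% of all genes were called and again 0 members. At an unadjusted p under 0.05 limma gave 3 lower members (Slc2a3, Ldhb and Epas1), where 4.35% of all genes were lower, and 2 higher members (Hk1 and Ndrg1), where 2.12% were higher. With the replicate block these became 5 lower members, adding Hk2 and Vegfa, against 6.23% of all genes, and 7 higher members, adding Pfkl, Aldoc, Hif1a, Egln1 and Ankrd37, against 3.62%. The members were abundant transcripts for the most part, 30 of 36 lying above the median gene level, against 50% of all genes by construction.

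**Figure D1:**
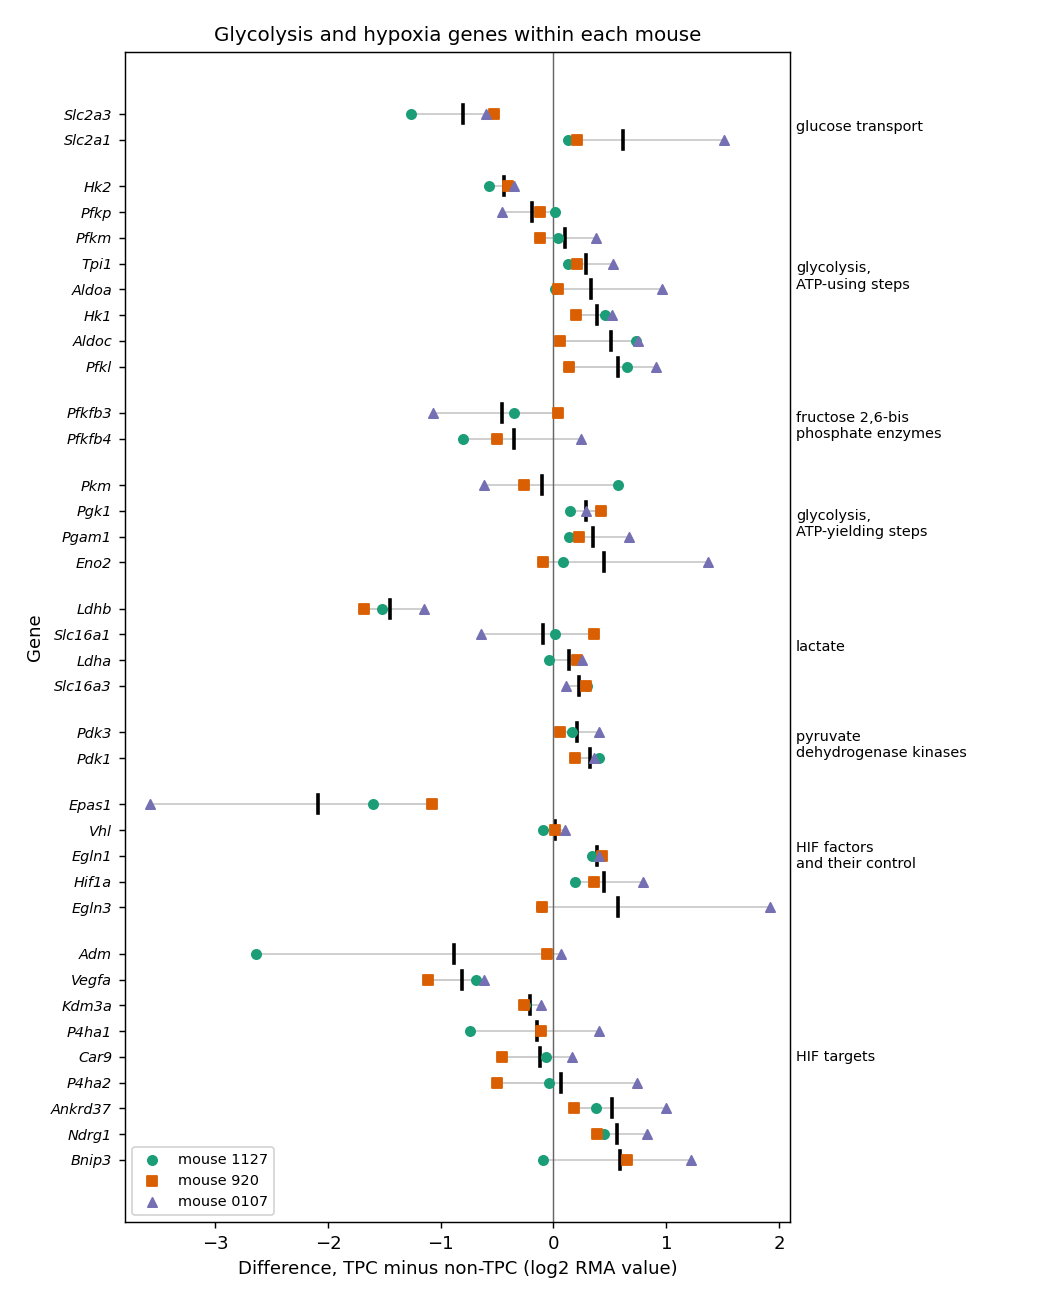
Difference between TPCs and non-TPCs (log2 RMA value, x axis) for the 36 measured genes (y axis), grouped by role; each symbol is 1 mouse and the black bar is the mean of the 3 mice. Ldhb and Epas1 lie left of zero in all 3 mice, while Slc2a1, Egln3 and Eno2 are drawn to the right by mouse 0107.

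Most members had the same sign in the 3 mice. Among the 36, 15 were higher in TPCs of all 3 mice, against 19.7% of all genes, and 6 were lower in all 3 mice, against 13.8%. In mice 1127 and 920 taken alone the share of higher members was near that of all genes and the share of lower members above it. There 16 members were higher in both mice, or 44.4%, where 40.9% of all genes were, and 12 were lower in both, or 33.3%, where 23.8% of all genes were. Of the 30 members above the median gene level 15 were higher in both mice and 10 lower, where 36.9% and 27.8% of all genes above that level were. Beside these brighter genes both shares of members were larger, and more so the higher one. The median difference of the members was 0.17, and within mice 1127, 920 and 0107 it was 0.01, 0.04 and 0.37, beside 0.07, 0.05 and -0.03 over all genes. With the non-TPC array of mouse 0107 left out, the median of the members was -0.01.

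**Figure D2:**
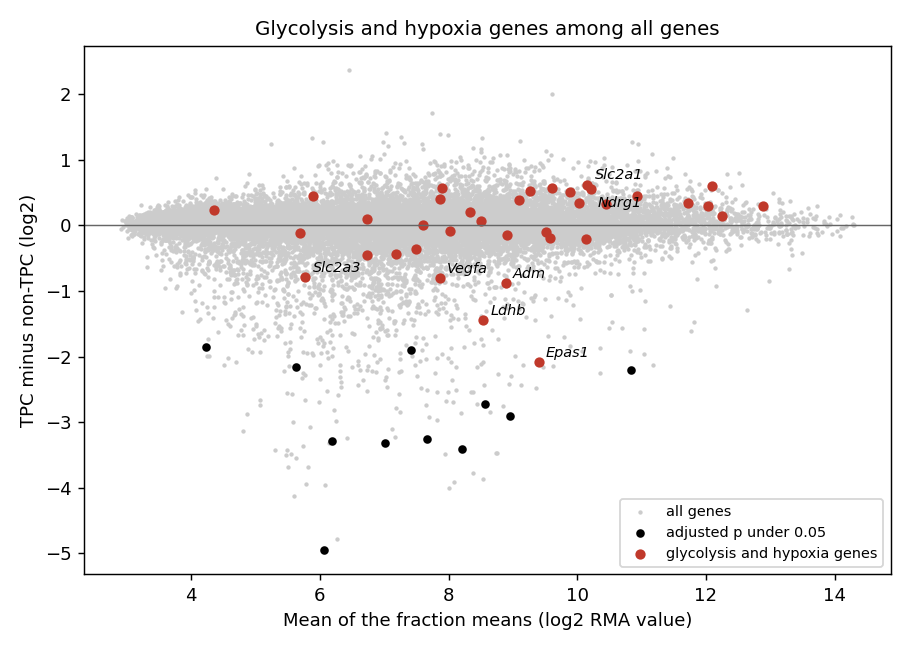
TPC minus non-TPC difference (log2, y axis) against the mean of both fraction means (log2 RMA value, x axis) for all 18193 genes (grey), the 11 genes with an adjusted p under 0.05 (black) and the 36 measured members (red). The members sit toward the bright end, and Epas1 and Ldhb are the only members below -1.

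The glucose transporters went in opposite directions. Slc2a1 encodes GLUT1, the widely expressed transporter that HIF induces. It stood at 10.33, 10.19 and 10.88 in TPCs of mice 1127, 920 and 0107 and at 10.20, 9.98 and 9.36 in their non-TPCs. The pairs of mice 1127 and 920 were close together, and mouse 0107 had both the highest and the lowest value. Slc2a1 differed by 0.62 (SE 0.28, limma adjusted p = 0.799), with 0.13, 0.21 and 1.51 within the mice. Without mouse 0107 its difference was 0.17.

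Slc2a3 encodes GLUT3, a high-affinity transporter known from neurons and white blood cells. Its level was dim, at 5.19, 5.48 and 5.46 in TPCs and 6.45, 6.00 and 6.06 in non-TPCs of mice 1127, 920 and 0107. All TPC arrays lay below all non-TPC arrays, which was so for 4 members (Slc2a3, Ldhb, Epas1 and Kdm3a) and 5.91% of all genes. Slc2a3 differed by -0.80 (SE 0.17, limma adjusted p = 0.365), a 1.74-fold difference. Its second probe set, dimmer still, gave -1.04, and the 2 dimmest gave 0.06 and 0.01. The summed level of 9 neutrophil markers was 424 to 628 in TPCs and 1937 to 2627 in non-TPCs on a linear scale, with 3 of the 9 above the median level, and its part in the Slc2a3 difference was not tested.

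Hexokinases trap glucose in the cell by phosphorylation, and the pair on the arrays leaned in opposite directions. Hk1, the constitutive isoform, was at 8.11, 7.99 and 8.08 in TPCs and 7.64, 7.80 and 7.56 in non-TPCs of mice 1127, 920 and 0107. The fractions did not overlap. Its difference was 0.39 (SE 0.13, adjusted p = 0.628 in limma), a 1.31-fold difference. Hk2, the isoform that HIF induces, was at 6.64, 6.88 and 7.39 in TPCs and 7.22, 7.28 and 7.74 in non-TPCs. Each TPC value lay under its own partner while the fractions overlapped across mice, and the difference was -0.44 (SE 0.24, adjusted p = 0.861).

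Among the other enzymes of the ATP-using stage, 4 were higher in TPCs of all 3 mice, none past the test. Tpi1, the triose phosphate isomerase, was at 12.22, 12.25 and 12.04 in TPCs and 12.09, 12.04 and 11.51 in non-TPCs (difference 0.29, SE 0.19, adjusted p = 0.878). Its lowest value was the non-TPC array of mouse 0107. Pfkl, the liver-type phosphofructokinase, differed by 0.65, 0.14 and 0.91 within mice 1127, 920 and 0107, but its mouse means spanned 2.05. Aldoa, the main aldolase of most tissues, differed by 0.01, 0.04 and 0.96 in the same mice. Aldoc, the aldolase of brain, differed by 0.73, 0.06 and 0.75. The phosphofructokinases Pfkm, of muscle type, and Pfkp, of platelet type, differed by 0.10 and -0.19, with mixed signs. The 8 measured genes of this stage had a median difference of 0.31, which became 0.01 when the non-TPC array of mouse 0107 was left out.

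Pfkfb3 and Pfkfb4 make and degrade fructose 2,6-bisphosphate, the allosteric activator of phosphofructokinase, and both are HIF targets. Pfkfb3 was at 6.62, 6.47 and 6.40 in TPCs and 6.97, 6.42 and 7.46 in non-TPCs of mice 1127, 920 and 0107. Its highest value was the non-TPC array of mouse 0107, and its difference was -0.46 (SE 0.26, adjusted p = 0.873). Pfkfb4 was at 7.18, 7.24 and 7.53 in TPCs and 7.98, 7.74 and 7.29 in non-TPCs. It was lower in TPCs of mice 1127 and 920 and higher in those of mouse 0107, with a mean of -0.35 (SE 0.21, adjusted p = 0.873).

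In the ATP-yielding stage Pgk1 and Pgam1 were higher in TPCs of all 3 mice, Eno2 and Pkm had mixed signs, and none passed the test. Pgk1, the phosphoglycerate kinase, was at 13.00, 13.10 and 13.00 in TPCs and 12.85, 12.68 and 12.70 in non-TPCs. The fractions did not overlap, which was also so for Hk1 and Ndrg1 among the members and for 6.71% of all genes in that direction. Pgk1 differed by 0.29 (SE 0.12, adjusted p = 0.773), with 0.15, 0.42 and 0.29 within mice 1127, 920 and 0107. Pgam1, the phosphoglycerate mutase, was at 10.56, 10.11 and 9.93 in TPCs and 10.42, 9.88 and 9.26 in non-TPCs (difference 0.35, SE 0.32, adjusted p = 0.901). Mouse 0107 was the lowest of the 3 in each fraction, and leaving out its non-TPC array brought the Pgam1 difference to 0.05.

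Eno2, the neuron-specific enolase used as a serum marker of small cell lung cancer, was dim on its single probe set. Its values were 6.54, 6.23 and 5.59 in TPCs and 6.47, 6.32 and 4.22 in non-TPCs. The difference of 0.45 (SE 0.61, adjusted p = 0.932) came from mouse 0107, and without that mouse it was -0.01. Pkm, the pyruvate kinase gene, differed by 0.57, -0.26 and -0.62 in mice 1127, 920 and 0107, with a mean of -0.10. The brightest Gapdh control, at the 3′ end, was at 13.21, 13.09 and 12.60 in TPCs and 13.02, 12.90 and 12.34 in non-TPCs, a mean difference of 0.21. Over the 4 genes tested in this stage the median was 0.32, and 0.08 when the non-TPC array of mouse 0107 was left out.

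The member with the smallest p was Ldhb, which encodes the heart-type subunit of lactate dehydrogenase, the form that favours turning lactate back into pyruvate. It was at 7.87, 7.73 and 7.81 in TPCs and 9.39, 9.41 and 8.96 in non-TPCs of mice 1127, 920 and 0107. The TPC values lay close together, and every non-TPC value lay above them. With 7.81 ± 0.07 as the TPC mean and 9.26 ± 0.26 as the non-TPC mean (SD, n = 3), Ldhb differed by -1.45 (SE 0.16, limma adjusted p = 0.0867), a 2.73-fold difference with a 95% interval of -1.84 to -1.06. It missed the threshold with the mouse as a replicate block (adjusted p = 0.0786). The threshold was met when the mouse entered as a random block (adjusted p = 0.0353), when its probe sets were averaged (-1.75, adjusted p = 0.0134), when the arrays were centred on bright genes (0.0433) and when the non-TPC array of mouse 0107 was left out (-1.60, adjusted p = 0.0234). Over all alternatives the adjusted p ran from 0.0134 to 0.832, the last without mouse 1127.

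All 4 Ldhb probe sets lay above the median level and were lower in TPCs of every mouse, with means of -1.45, -1.64, -1.56 and -2.33. The Ldhb differences of -1.52, -1.68 and -1.15 in mice 1127, 920 and 0107 stood beside median differences of -1.30, -1.77 and -0.63 for the alveolar type 1 list and -1.46, -1.79 and -0.82 for the club cell list. The alveolar type 2 list had -1.22, -1.60 and -0.81. Leukocyte (-0.96, -0.96 and -0.49) and macrophage and monocyte (-0.60, -0.81 and -0.40) medians were negative in each mouse too. Of the alveolar type 1 and club cell lists 4 of 8 and 7 of 8 genes lay above the median level. Their summed linear levels were 943 to 1175 in TPCs and 2485 to 4723 in non-TPCs for alveolar type 1 genes, and 13024 to 25210 and 16378 to 65395 for club cell genes. The part of any of these lists in the Ldhb difference was not tested.

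Ldha encodes the muscle-type subunit, which makes lactate, and is a classical HIF target. Its values were 12.35, 12.70 and 11.92 in TPCs and 12.39, 12.49 and 11.67 in non-TPCs. The fractions overlapped, and mouse 0107 was lowest in both. The Ldha difference was 0.14 (SE 0.29, adjusted p = 0.952), with a 95% interval of -0.55 to 0.83. The sequences before the starts of both genes are shown because they encode the subunits of 1 enzyme and stand at the low end and near the middle of the members' differences. They are RefSeq sequences of build GRCm38.p6, 250 bases that end at the start of transcription, given in the direction of the gene. Capitals mark ACGTG or GCGTG on either strand, the core letters of the hypoxia response element. Ldha has 2 listed starts, at chr7:46845554-46845803 and chr7:46846832-46847081 on the plus strand, and Ldhb has 1, at chr6:142507958-142508207 on the minus strand.
Ldha, first start: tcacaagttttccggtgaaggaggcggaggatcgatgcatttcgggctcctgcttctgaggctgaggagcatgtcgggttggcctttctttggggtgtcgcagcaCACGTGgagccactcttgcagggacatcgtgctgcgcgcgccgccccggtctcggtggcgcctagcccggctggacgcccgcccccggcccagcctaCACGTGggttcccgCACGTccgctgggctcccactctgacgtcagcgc
Ldha, second start: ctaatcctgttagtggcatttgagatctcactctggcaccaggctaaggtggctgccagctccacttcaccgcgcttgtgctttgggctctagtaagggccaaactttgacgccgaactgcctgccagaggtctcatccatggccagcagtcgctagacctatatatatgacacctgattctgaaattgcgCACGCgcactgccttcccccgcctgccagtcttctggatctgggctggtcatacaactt
Ldhb: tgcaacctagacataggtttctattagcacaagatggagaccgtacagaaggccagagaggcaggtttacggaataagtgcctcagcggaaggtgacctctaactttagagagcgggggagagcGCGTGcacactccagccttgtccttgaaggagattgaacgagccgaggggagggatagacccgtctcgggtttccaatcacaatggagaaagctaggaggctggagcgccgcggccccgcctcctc
Slc2a1: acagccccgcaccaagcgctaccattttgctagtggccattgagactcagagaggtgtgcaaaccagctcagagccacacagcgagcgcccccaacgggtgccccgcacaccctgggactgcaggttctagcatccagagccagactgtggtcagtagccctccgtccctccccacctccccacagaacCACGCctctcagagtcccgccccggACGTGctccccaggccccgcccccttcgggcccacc
The first Ldha window holds ACGTG 5 times, counting both strands of 2 palindromic CACGTG sites, the second holds GCGTG once, and the Ldhb window holds GCGTG once. Slc2a1, the higher of the 2 glucose transporters in TPCs by its mean, is added for comparison from chr4:119108495-119108744 on the plus strand and holds each core once.

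Such core letters were common before these genes. Of the 33 measured members with a listed start (all but Slc2a3, Epas1 and Ndrg1), 30 hold ACGTG or GCGTG in at least 1 window of 250 bases, or 90.9%, against 53.6% of 14452 genes measured on the arrays. ACGTG was found before 63.6% of the members and 22.5% of those genes, and GCGTG before 66.7% and 42.5%. The palindrome CACGTG, which contains ACGTG on both strands, was found before 18.2% and 8.73%. All HIF targets with a listed start and all 4 genes of the lactate group held a core, whichever way they differed between the fractions. The members' windows were also richer in C and G, with a median of 62.8% against 57.6%, and the cores contain CG. Genes with several listed starts had more windows in which a core could fall, and the shares were not matched for this. A match of these letters is not a site.

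The lactate carriers did not separate the fractions. Slc16a1, which encodes the carrier MCT1, differed by 0.01, 0.36 and -0.64 in mice 1127, 920 and 0107. Slc16a3 encodes MCT4, the HIF-induced exporter, and was near the floor of the arrays, whose first quartile was 4.52 to 4.65. It was at 4.64, 4.58 and 4.21 in TPCs and 4.34, 4.29 and 4.10 in non-TPCs, overlapping, with a difference of 0.23 (SE 0.16, adjusted p = 0.886).

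Pyruvate dehydrogenase kinases switch off the pyruvate dehydrogenase of mitochondria. Pdk1, a HIF target, was at 10.35, 10.43 and 11.03 in TPCs and 9.95, 10.24 and 10.67 in non-TPCs, ordered alike in both fractions. It differed by 0.32 (SE 0.26, adjusted p = 0.898), with 0.40, 0.19 and 0.36 within the mice. Pdk3 was at 8.49, 8.51 and 8.28 in TPCs and 8.33, 8.45 and 7.88 in non-TPCs. Its difference was 0.21 (SE 0.18, adjusted p = 0.901), and 0.04 when the non-TPC array of mouse 0107 was dropped. Both were higher in TPCs of each mouse, by less than the spread between mice.

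Of the HIF alpha subunits, Epas1 had the largest difference of any member. It encodes HIF-2 alpha, which is abundant in endothelium and alveolar epithelium. Its values were 8.31, 9.05 and 7.70 in TPCs and 9.91, 10.13 and 11.28 in non-TPCs of mice 1127, 920 and 0107. The fractions did not overlap, and mouse 0107 held both the lowest and the highest value. With 8.36 ± 0.68 as the TPC mean and 10.44 ± 0.74 as the non-TPC mean (SD, n = 3), Epas1 differed by -2.09 (SE 0.46, limma adjusted p = 0.381), a 4.24-fold difference with a 95% interval of -3.19 to -0.98. Without mouse 0107 the difference was -1.34 (adjusted p = 0.295). A second, dim probe set with a mean level of 5.66 differed by -0.05, and the mean of both by -1.07 (adjusted p = 0.564).

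Endothelial and alveolar marker lists were lower in TPCs beside Epas1, which differed by -1.60, -1.08 and -3.58 in mice 1127, 920 and 0107. The endothelial medians in these mice were -0.58, -0.01 and -1.49, in the same order of mice as Epas1. The alveolar type 1 medians were -1.30, -1.77 and -0.63 and the type 2 medians -1.22, -1.60 and -0.81, in the opposite order. The summed linear level of the 14 endothelial markers, of which 4 lay above the median level, was 783 to 869 in TPCs. In non-TPCs it was 1432, 815 and 3099 in mice 1127, 920 and 0107. In mouse 920 the sum was close in both fractions, at 783 and 815, and Epas1 differed there by -1.08. In that mouse the summed alveolar type 1 markers were 1175 in TPCs and 4723 in non-TPCs, and the 9 alveolar type 2 markers, of which 7 lay above the median level, 2374 and 12258. In the non-TPC array of mouse 0107, where Epas1 was highest, the alveolar type 1 sum of 2485 and the type 2 sum of 6901 were the lowest of the non-TPC arrays, beside 1059 and 2283 in its TPCs. In mouse 1127 they were 2727 and 8470 in non-TPCs and 943 and 2144 in TPCs. The part of endothelial and alveolar cells in the Epas1 difference was not tested.

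**Figure D3:**
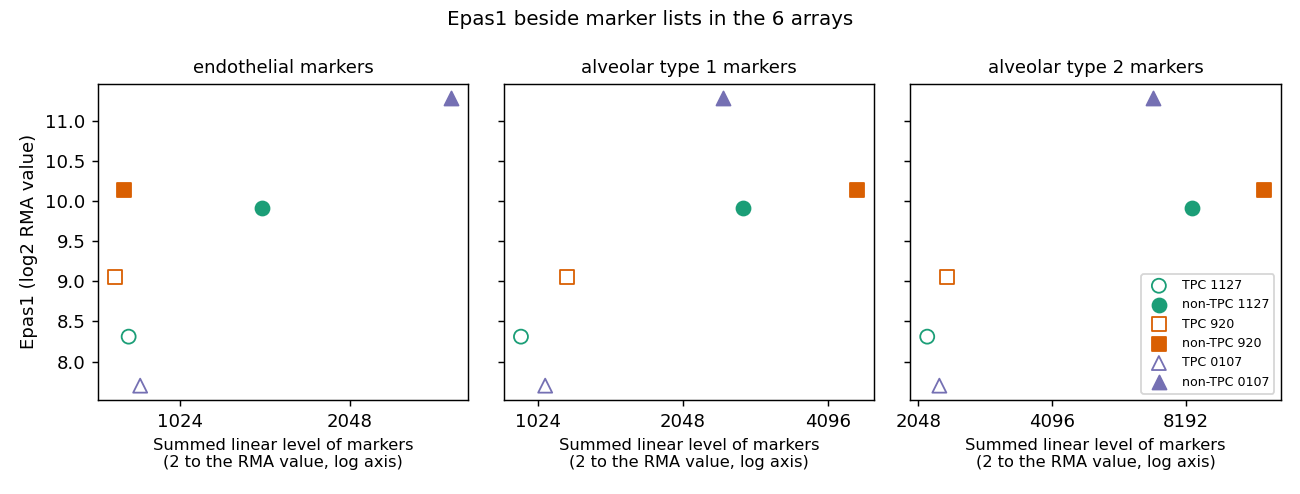
Epas1 (log2 RMA value, y axis) against the summed linear level of endothelial, alveolar type 1 and alveolar type 2 marker lists (x axes, logarithmic) in each array; open symbols are TPCs, filled symbols non-TPCs, and the shape gives the mouse. Non-TPC arrays lie above all TPC arrays in Epas1, and the non-TPC array of mouse 920 has a low endothelial but a high alveolar sum.

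Hif1a encodes HIF-1 alpha and stood the other way by its mean. It was at 10.90, 11.67 and 10.88 in TPCs and 10.71, 11.31 and 10.09 in non-TPCs. Mouse 920 was highest in both fractions, which overlapped. Hif1a differed by 0.45 (SE 0.36, adjusted p = 0.898), with 0.19, 0.36 and 0.79 within the mice, and its other 3 probe sets differed by 0.57, 0.77 and 0.14. Leaving out 1 mouse or array moved the Hif1a difference from 0.14 (non-TPC array of mouse 0107 dropped) to 0.75 (non-TPC array of mouse 920 dropped).

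None of the regulators of HIF alpha stability passed the test. Vhl, which encodes the substrate receptor of the ubiquitin ligase, was at 7.48, 7.58 and 7.73 in TPCs and 7.57, 7.57 and 7.63 in non-TPCs. Its difference was 0.01, with a 95% interval of -0.30 to 0.31 (adjusted p = 0.992). Egln1, the main oxygen-sensing hydroxylase PHD2, was at 9.51, 9.37 and 9.0 in TPCs and 9.16, 8.94 and 8.60 in non-TPCs. It differed by 0.39 (SE 0.21, adjusted p = 0.849), with 0.34, 0.43 and 0.40 within mice 1127, 920 and 0107, a nearly equal step on levels that differed between mice by more. Egln3, the strongly hypoxia-induced PHD3, differed by 0.57 in the mean (SE 0.64, adjusted p = 0.914) and by -0.11, -0.10 and 1.92 in the same mice. On this probe set it was at 7.74 in the non-TPC array of mouse 0107 against 9.66 or more in all others. The second Egln3 probe set, with a mean level of 6.93, was higher in TPCs of each mouse, by 0.39, 0.29 and 0.19.

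**Figure D4:**
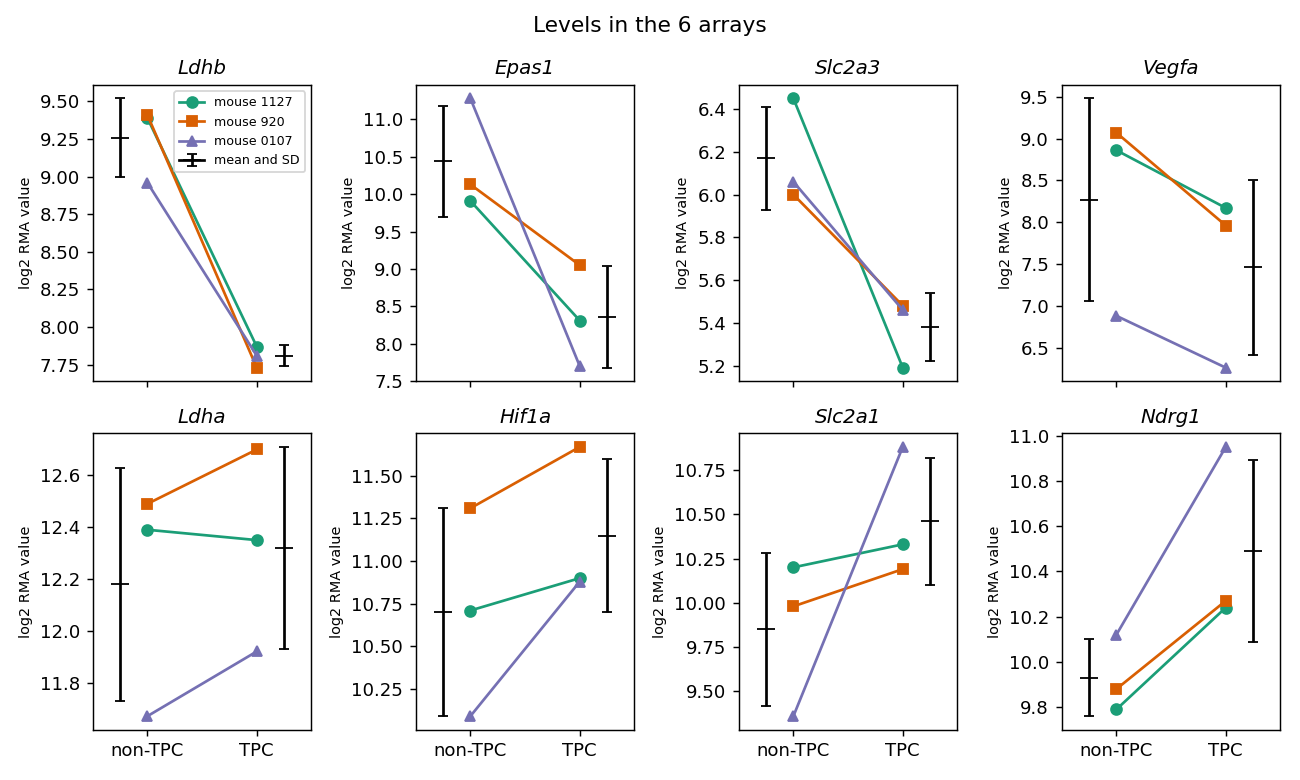
Level (log2 RMA value, y axis; the scale differs between panels) of 8 members in non-TPCs and TPCs, with a line for each mouse and the mean and SD of the 3 mice at the side. Ldhb, Epas1 and Slc2a3 (top) separate the fractions downward in TPCs, Ndrg1 (bottom) separates them upward, and Vegfa differs more between mice than between fractions.

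Vegfa, the chief angiogenic factor induced by HIF, was lower in TPCs of each mouse while the mice themselves differed widely. It was at 8.17, 7.96 and 6.26 in TPCs and 8.86, 9.07 and 6.88 in non-TPCs of mice 1127, 920 and 0107. Both fractions of mouse 0107 lay below every other array. Vegfa differed by -0.81 (SE 0.72, adjusted p = 0.901), with -0.69, -1.11 and -0.62 within the mice. With the mouse as a replicate block its SE was 0.16 and its adjusted p 0.219. Leaving out 1 array of mouse 0107 without its partner moved Vegfa to -0.20 (TPC array) or -1.50 (non-TPC array), and leaving out the whole mouse gave -0.90. A second probe set of nearly the same level differed by -0.55, -0.40 and -0.10.

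Ndrg1, a stress-response gene widely used as a hypoxia marker, was higher in every TPC array than in any non-TPC array on its brightest probe set. Its values were 10.24, 10.27 and 10.95 in TPCs and 9.79, 9.88 and 10.12 in non-TPCs, a difference of 0.56 (SE 0.23, adjusted p = 0.751). The other Ndrg1 probe sets, all above the median level, differed by 0.62, 0.22, 0.85 and 0.27. On those with 0.22 and 0.85 the fractions overlapped. Kdm3a, a histone demethylase that HIF induces, went the opposite way in a narrow range, at 9.98, 9.98 and 10.12 in TPCs and 10.23, 10.25 and 10.22 in non-TPCs (difference -0.21, SE 0.12, adjusted p = 0.872). Kdm3a and Ndrg1 are thus HIF targets whose fractions did not overlap on the probe sets used, in opposite directions.

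Adm, which encodes the vasodilator peptide adrenomedullin, differed in 1 mouse. It was at 7.54, 8.99 and 8.82 in TPCs and 10.18, 9.06 and 8.75 in non-TPCs of mice 1127, 920 and 0107. The pair of mouse 1127 held both extremes, with a difference of -2.64 against -0.06 and 0.07 in the others. The mean difference was -0.88 (SE 0.50, adjusted p = 0.873). The summed linear level of the 12 fibroblast markers, 3 of which lay above the median level, was 24691 in the non-TPC array of mouse 1127, against 7171 and 3964 in the other non-TPC arrays and 1889 to 3664 in TPCs. For 10 smooth muscle and pericyte markers, 1 of them above the median level, the sums were 2535, 712 and 639 in non-TPCs of mice 1127, 920 and 0107 and 529 to 578 in TPCs. The part of either list in the Adm difference was not tested. Lox, a collagen cross-linking oxidase that is also a HIF target, had differences of -2.88, -1.06 and -0.19 in the same mice.

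The remaining HIF targets did not pass the test either. Bnip3, a mitophagy receptor, differed by -0.09, 0.65 and 1.22 in mice 1127, 920 and 0107. Ankrd37, a small ankyrin protein induced by HIF-1, was higher in TPCs of all 3 mice, by 0.38, 0.18 and 1.0, with a mean of 0.52 (SE 0.31, adjusted p = 0.873). P4ha1 and P4ha2, subunits of the collagen prolyl hydroxylase, differed by -0.15 and 0.07 in the mean, each with mixed signs. Car9, the carbonic anhydrase often used to stain hypoxic tumour regions, was dim at 5.50 to 5.97 in all arrays and differed by -0.12. The 9 measured targets had a median difference of -0.12, with -0.09, -0.11 and 0.40 in mice 1127, 920 and 0107, and 0.12 without mouse 1127.

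**Figure D5:**
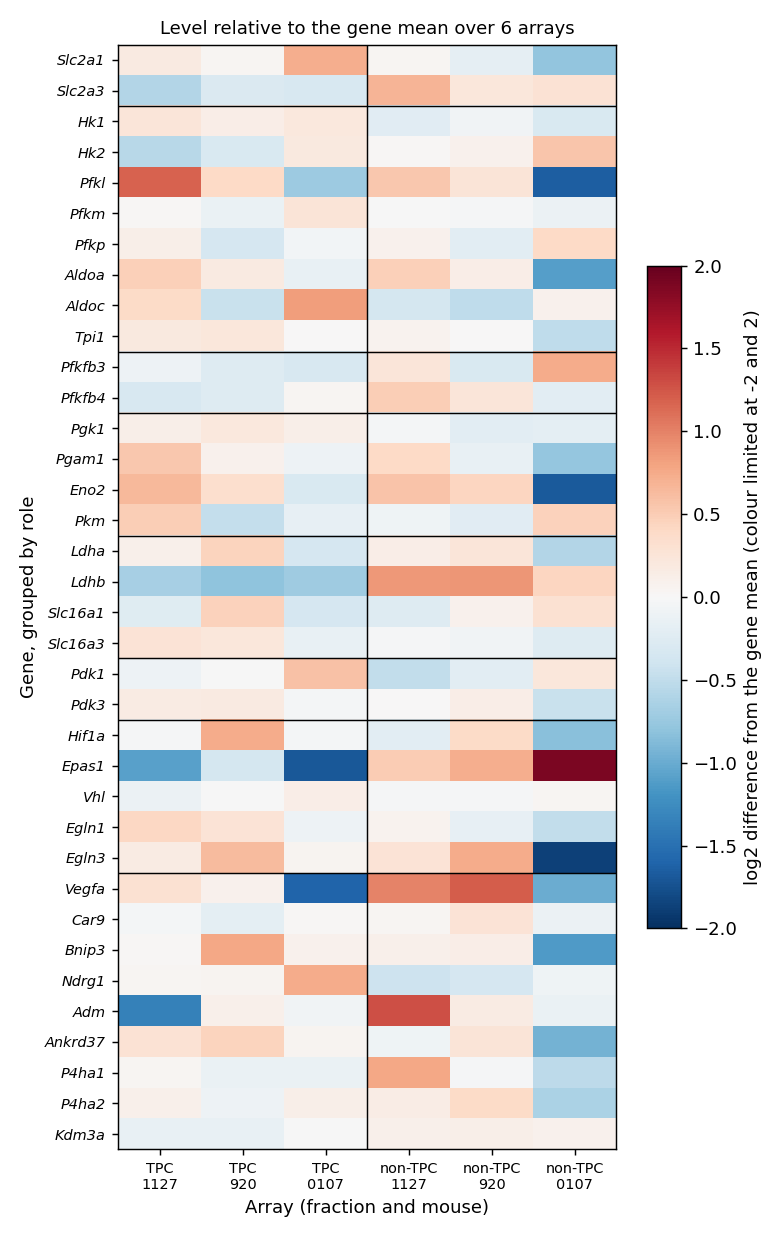
Level of each measured member (rows, grouped by role) in each array (columns) relative to the member's mean over the 6 arrays, in log2 units, red above and blue below, with colour limited at -2 and 2. The non-TPC array of mouse 0107 is the lowest of the 6 for 17 of the 36 members, with Epas1, Pfkfb3 and Hk2 among those highest in it.

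For 25 of the 36 members, or 69.4%, the means of the 3 mice spanned more than the fraction difference, a smaller share than the 78.5% of all genes. The non-TPC array of mouse 0107 was the lowest of the 6 arrays for 17 members, or 47.2%, against 20.9% of all genes and 30.7% of genes above the median level. Mouse 0107 was lowest in both fractions for 13 members, or 36.1%, against 15.1% of all genes and 22% of those above the median level. Pfkl, Eno2, Vegfa and Egln3 had the widest spans, from 1.59 to 2.05. The 3′ to 5′ gap of the Gapdh and actin controls was widest in the same mouse, and the median difference of the 14 dissociation-response genes was 0.84 there, against 0.20 and -0.22 in mice 1127 and 920. The part of either in these values was not tested. The heat map of levels by array shows the blue column of that non-TPC array across most roles.

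Genes of the same pathways outside the 40 held no calls either. As 0.0605% of all genes were called, the lack of calls in lists of this size tells little about them. Of 54 further glycolysis, pyruvate and pentose phosphate genes 49 were measured, with a median difference of 0.10, 0 past the threshold and an unadjusted p under 0.05 for 1 higher and 1 lower gene, where 2.12% and 4.35% of all genes had one. Slc16a7, the pyruvate and lactate carrier MCT2, was higher in TPCs of all 3 mice, by 0.36, 0.88 and 1.53 (adjusted p = 0.738). Pdha1, a subunit of pyruvate dehydrogenase, differed by -0.41 (adjusted p = 0.754), Pfkfb2 by -0.51 (0.773) and the gluconeogenic enzyme Fbp1 by 0.82 (0.81).

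Of 48 further hypoxia genes 44 were measured, again with 0 past the threshold and a median of 0.02. Unadjusted p-values under 0.05 fell on 4 higher and 5 lower genes of the 44, where 2.12% and 4.35% of all genes had one. Angptl4, a secreted inhibitor of lipoprotein lipase, differed by -0.77 and Plod2, a collagen lysyl hydroxylase, by -1.58 (both limma adjusted p = 0.292). Edn1, the vasoconstrictor endothelin-1 of endothelium, differed by -2.35 (0.336), with -3.49 in mouse 0107. Cited1, a transcriptional co-regulator, differed by 1.27 (0.381) and was higher in TPCs of all 3 mice. The list therefore held members on both sides, as the 40 did.

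By the mean over the mice, further probe sets gave the same sign where they were bright. Of 77 probe sets for the 36 members, 26 beyond those used exceeded the median gene level. By their means 0 of these had the opposite sign. Of 15 dimmer ones 8 had the opposite sign, among them those of Pfkl, Pfkp, Slc16a1 and Slc2a3. Within single mice some bright further probe sets did turn. Those of Aldoa gave -0.06 and -0.07 in mouse 1127 and -0.04 in mouse 920. In mouse 920 Pfkl gave -0.07 and Pdk1 -0.09, and in mouse 0107 Ndrg1 gave -0.04. The probe sets used for these members were higher in TPCs of every mouse, which their further probe sets thus did not all share. Probe sets whose names mark possible cross-hybridisation gave the value of Slc2a3, Aldoa, Tpi1, Pgk1, Ndrg1 and Adm, and signal of close copies cannot be separated there.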

How the data were processed

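The series holds 6 one-colour Affymetrix arrays of sorted mouse tumour cells, 3 per fraction. Per the submitters' processing notes the authors made the deposited log2 values with RMA, a background-corrected, quantile-normalised summary per probe set. The log base was read from their range of 2.70 to 14.81. The RMA version and probe set definitions were not given in the sources used here. Quantile normalisation removes shifts common to a whole array. Arrays carry no depth, and their number limits the precision. Of 45101 probe sets 34945 carried 1 gene symbol, 932 several, 9160 none and 64 were controls; symbols were updated through Entrez identifiers to RefSeq GRCm38.p6 for 18032 of 18193 genes.

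Fractions were taken from the titles. Limma 3.58.1 in R 4.3.3 (lmFit, eBayes, two-sided) was fitted to all genes with fraction as the only term and Benjamini-Hochberg adjustment at 0.05; the procedure was tested on simulated data. Both fractions of a mouse come from 1 animal, and their deviations from the fraction means correlated at 0.30, 0.46 and 0.36, so the mouse also entered as a replicate block. The p-values of the main fit rest on the spread of the 3 mice within each fraction. Those with the replicate block rest on the spread of the differences within mice. In both, eBayes draws the variance of each gene toward that of all genes. Alternatives were random mouse blocks, leaving out each mouse or array, all probe sets averaged, bright genes alone, other scalings and an intensity trend with robust estimation. Members and lists were chosen with earlier results of these data known. Per-array values are given for members past the threshold, up to 3 per role with the smallest p, those of at least 1 in size and one direction, and Hif1a, Epas1, Vhl and Vegfa; of other pathway genes, 4 per list with the smallest p, and Lox was added after its values were seen. Of marker lists the text uses those whose sums moved beside a member.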

Additional observations from a re-analysis of the deposited data

How the results depend on the processing

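With a replicate block for the mouse, 13 genes and 0 members were called, against 11 and 0 without it, and the block changed no call among the members. The number of all genes called was 39 with the mouse as a random block, 4 with all probe sets averaged, 17 with arrays centred on bright genes, and 0 to 84 when a mouse or an array was left out. The number of members called was 1 with the random block, with averaged probe sets and with centred arrays, each time Ldhb, and 0 to 1 when a mouse or an array was left out. The median difference of the members ranged from -0.01 to 0.27 over the fits without a mouse or array. By role this range was -0.36 to 0.15 for glucose transport, 0.01 to 0.41 and 0.08 to 0.49 for the ATP-using and ATP-yielding enzymes, -0.04 to 0.54 for HIF factors and their control, -0.26 to 0.16 for HIF targets, -0.19 to 0.20 for lactate, 0.19 to 0.33 for the pyruvate dehydrogenase kinases and -0.52 to -0.32 for Pfkfb3 and Pfkfb4. For glucose transport it was 0.62 with genes above the median level alone, where Slc2a1 is the only one left. When a mouse was left out, the members higher in TPCs of both others numbered 16 to 18 and those lower 7 to 12; this count was added after seeing the data.

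Of 364 values of the 23 members with per-array values, 351 kept their direction and their side of the threshold. Ldhb passed 4 times. The direction turned in fits that left out a mouse or array for Eno2 (-0.27 to 0.85), Ldha (-0.12 to 0.34), Vhl (-0.06 to 0.07) and Adm (-1.35 to 0.00). Without turning, the difference moved by over 1.5 times for Slc2a1 (0.17 to 0.86), Pfkfb3 (-0.72 to -0.15), Pfkfb4 (-0.65 to -0.13), Tpi1 (0.11 to 0.39), Pgam1 (0.05 to 0.63), Pdk1 (0.10 to 0.51), Pdk3 (0.04 to 0.32), Hif1a (0.14 to 0.75), Vegfa (-1.50 to -0.20), Hk2 (-0.65 to -0.28), Slc16a3 (0.15 to 0.36), Egln1 (0.24 to 0.54), Ndrg1 (0.33 to 0.68) and Epas1 (-2.59 to -1.34). The cause was not tested.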

Other observations

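Members of opposite sign shared a role in several places. Slc2a1 and Slc2a3, Hk1 and Hk2, Ldha and Ldhb, Hif1a and Epas1, and Ndrg1 and Kdm3a each differed in sign between TPCs and non-TPCs by their means, which were 0.62 and -0.80, 0.39 and -0.44, 0.14 and -1.45, 0.45 and -2.09, and 0.56 and -0.21. The sign of Ldha was mixed across the mice, and its difference ran from -0.12 to 0.34 when a mouse or array was left out. The pairs were put together after their values were seen, and no test of the difference within a pair was run.

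The hypoxia-induced lipid droplet gene Hilpda had nearly the same difference in each mouse, at -0.76, -0.77 and -0.66 in mice 1127, 920 and 0107. It differed by -0.73 (limma adjusted p = 0.527, and 0.181 with the replicate block). Higd1a, a mitochondrial protein induced by HIF-1, differed by 0.28, 0.65 and 0.56 in the same mice (0.50 in the mean, adjusted p = 0.517), and Ak4, a mitochondrial adenylate kinase, by 0.58, 0.44 and 0.43 (0.48, adjusted p = 0.626). In each case the sign was shared by 3 of 3 mice and the difference did not pass the test. These genes were picked after their values were seen.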
